A study of Mus musculus with 2 samples.

Results

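The 6 hairpins described here are Mir290a, Mir291a, Mir291b, Mir293, Mir294 and Mir295, which lie in this order on the plus strand of chromosome 7 of GRCm38, within chr7:3218626-3220841. They are members of the miR-290 cluster, and were read from 2 small RNA libraries of fetal mouse testis. One library was made from 20 pooled WT testes and the other from 20 pooled Hsp90α KO testes, both from C57BL/6 fetuses at embryonic day 16.5 (E16.5) obtained by natural mating, with no treatment. The labels do not describe the knockout allele, and each genotype has 1 library, so that no difference between them has a replicate check. Hsp90α is the inducible cytosolic isoform of the HSP90 chaperone.

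A member read was any sequence of at least 16 nt found without mismatch, on the sense strand, inside the GENCODE M21 transcript of 1 of these 6 genes, out of 2201 hairpin genes annotated. All are annotated as single miRNA genes: Mir290a (ENSMUSG00000077815.1) at chr7:3218626-3218708, Mir291a (ENSMUSG00000078008.1) at chr7:3218919-3219000, Mir291b (ENSMUSG00000078032.1) at chr7:3219482-3219560, Mir293 (ENSMUSG00000078035.1) at chr7:3220343-3220422, Mir294 (ENSMUSG00000077903.1) at chr7:3220641-3220724 and Mir295 (ENSMUSG00000077886.1) at chr7:3220773-3220841. All 6 hairpins had reads in both libraries, where 1078 of the 2201 hairpin genes had a read in WT and 1073 in KO. In total 1630 WT reads and 2218 KO reads were found, in 70 distinct sequences, of which 39 occurred in both libraries. This overlap was not taken over the 7551 WT and 6394 KO sequences that matched any hairpin. None of the 70 lay inside a second hairpin gene, so reads of these closely related hairpins were not shared between them.

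The miR-290 cluster is transcribed as 1 precursor that holds several hairpins. It is best known from mouse embryonic stem cells and the early embryo, where its miRNAs promote the passage from G1 to S phase by repressing inhibitors of the cell cycle, and it is also active in germ cells of the fetal gonad. Each hairpin is cut by Drosha and Dicer into a duplex of a 5p and a 3p strand, of which usually 1 is kept in an Argonaute protein. The kept strand finds its targets mainly through the seed, bases 2 to 8 from its 5′ end. A change of arm, or a shift of the 5′ end by a single base, therefore changes the set of targets.

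The annotated mature sequences are shown because their seeds divide the cluster into families (RefSeq, GRCm38.p6; 12 mature sequences matched the 6 hairpins; capitals mark the seed). The 3p strands, with their start and end on the plus strand of chromosome 7, are as follows.
miR-290a-3p (3218674 to 3218697): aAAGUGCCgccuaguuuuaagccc
miR-291a-3p (3218968 to 3218989): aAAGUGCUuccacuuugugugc
miR-291b-3p (3219529 to 3219550): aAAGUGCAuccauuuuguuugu
miR-293-3p (3220390 to 3220411): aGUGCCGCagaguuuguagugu
miR-294-3p (3220691 to 3220712): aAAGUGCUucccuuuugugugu
miR-295-3p (3220815 to 3220837): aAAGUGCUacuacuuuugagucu
miR-291a-3p, miR-294-3p and miR-295-3p have an identical seed, and miR-290a-3p and miR-291b-3p differ from it in its last base. These 3p strands share the core AAGUGC at bases 2 to 7, of which miR-293-3p holds only AGUGC, at bases 1 to 5.

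The 5p strands fall into a CUCAAA group and, for miR-291a-5p and miR-291b-5p, an AUCAAA group.
miR-290a-5p (3218639 to 3218660): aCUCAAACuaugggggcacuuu
miR-291a-5p (3218932 to 3218953): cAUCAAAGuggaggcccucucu
miR-291b-5p (3219494 to 3219515): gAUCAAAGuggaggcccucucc
miR-293-5p (3220356 to 3220377): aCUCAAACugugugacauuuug
miR-294-5p (3220655 to 3220676): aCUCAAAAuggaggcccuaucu
miR-295-5p (3220779 to 3220800): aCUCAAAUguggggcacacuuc
miR-291a-5p and miR-291b-5p share 20 of 22 bases when aligned from their 5′ ends, the closest pair of the cluster. miR-291a-3p and miR-294-3p share 19 of 22.

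The libraries held 6409305 WT and 5589326 KO reads, of which 2523084 and 2561491 matched a hairpin. Levels are given as reads per 1000000 hairpin-matching reads (RPM), and 3 reads stand for 1.19 RPM in WT and 1.17 RPM in KO. All intervals cover the counting of reads only. With 1 library per genotype, the intervals and tests compare these 2 libraries and not the genotypes. Reads copied by PCR are not independent molecules, which the intervals and tests do not allow for. In whole testes a change in the number of germ cells cannot be told apart from a change in the amount of RNA per cell.

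Mir295 was the most abundant of the 6 hairpins in both libraries. It was read 1045 times in WT and 1428 times in KO, or 414 and 557 RPM, which was 64.1% and 64.4% of the reads of the 6 hairpins. Mir293 had 194 WT and 274 KO reads (76.9 and 107 RPM). Mir294 had 182 and 213 reads (72.1 and 83.2 RPM), and Mir291a had 173 and 260 (68.6 and 102 RPM). These middle 3 hairpins lay close together. Mir290a, at the 5′ end of the cluster, had only 17 and 23 reads (6.74 and 8.98 RPM), and Mir291b 19 and 20 (7.53 and 7.81 RPM).

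The levels of the 6 members fell into 3 tiers. In WT, Mir293 and Mir294 differed by no more than counting error (exact binomial test, p = 0.571), as did Mir294 and Mir291a (exact, p = 0.671) and Mir291b and Mir290a (exact, p = 0.868). In KO, Mir293 and Mir291a were not distinguished (exact, p = 0.574), and Mir291a stood 1.22-fold above Mir294 (exact, p = 0.0343). These p-values are not adjusted over the 10 neighbouring pairs. Mir295 was 5.39-fold above the next member in WT and 5.21-fold in KO, and the lowest hairpin of the middle tier was 9.11-fold and 9.26-fold above the next. Mir292, which is not a member, had 394 and 443 reads, so that Mir295 was 2.65-fold and 3.22-fold above it.

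**Figure D1:**
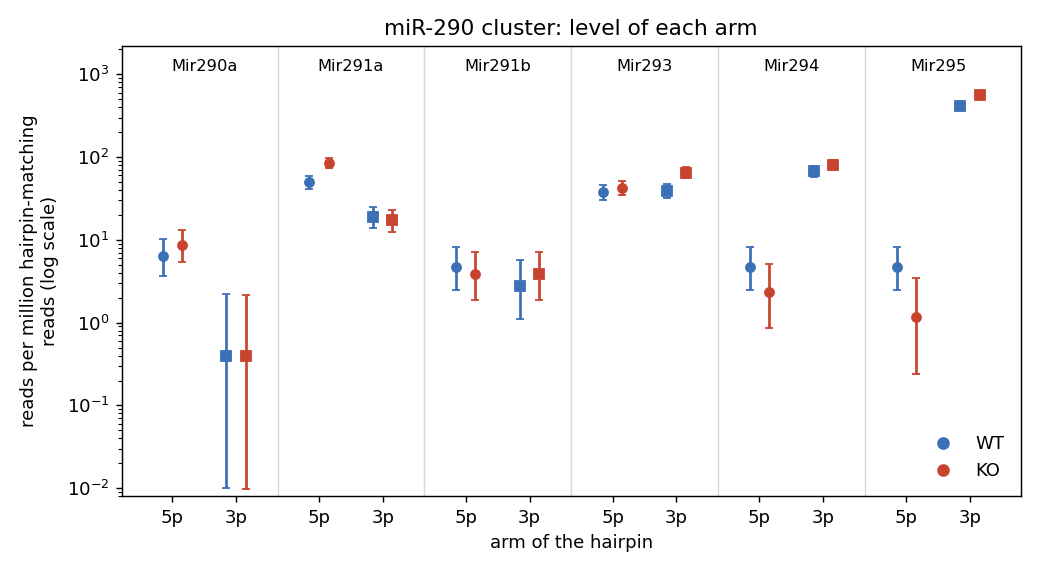
Level of the 5p (circles) and 3p (squares) arm of each hairpin in the WT (blue) and KO (red) library, in RPM on a log axis, with 95% Poisson intervals of the counts. The 3p arm of Mir295 lies highest, at 409 in WT and 556 in KO, and the 3p arm of Mir290a lowest, with 1 read in each library.

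The 6 members together were higher in the KO library. The 6 hairpins together had 646 RPM in WT and 866 in KO, a KO/WT ratio of 1.34 (95% Clopper-Pearson interval 1.26 to 1.43). The ratio was 1.33 (1.19 to 1.48) without Mir295, so that it did not rest on the most abundant hairpin. With Mir292, a hairpin of the cluster that is not a member, added to the 6, it was 1.295 (1.222 to 1.373). All 6 hairpins had a ratio above 1, as did 28.8% of the 458 hairpin genes with at least 100 reads, although the intervals of Mir290a, Mir291b and Mir294 included 1. The 458 include genes that drew most of their reads from sequences of 24 to 33 nt or from shared sequences. The 28.8% was not taken without those genes.

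The hairpins were then compared one by one, with exact binomial tests adjusted over the 458 hairpin genes that had at least 100 reads in both libraries together. Mir295 rose 1.35-fold (1.24 to 1.46; exact binomial test, adjusted p = 5.23e-13), Mir291a 1.48-fold (1.22 to 1.80; exact, adjusted p = 0.000128) and Mir293 1.39-fold (1.15 to 1.68; exact, adjusted p = 0.000832). For Mir294 the ratio was 1.15 (0.941 to 1.41; exact, adjusted p = 0.219), or 1.34 (1.10 to 1.64) when all reads were the normalizing total. Mir290a and Mir291b were below the minimum of 100 reads, and their ratios of 1.33 (0.681 to 2.66) and 1.04 (0.525 to 2.05) are compatible with changes in either direction. The ratios of the members were not distinguished from one another. Of the 15 pairs of hairpins the farthest apart were Mir291a and Mir294 (Fisher's exact test, unadjusted p = 0.0792).

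Thus 3 of the 4 members tested were called higher in KO, where 8.73% of all 458 hairpin genes were, and 51.1% were called lower. None of the 458 had a ratio over 1.5 (0%), while 40% had a ratio under 1/1.5. With a minimum of 10 reads 33 of 669 hairpin genes had a ratio over 1.5, and with all reads as the normalizing total 15 of the 458 did. Of these 183 hairpin genes, 180 drew most of their reads from sequences of 24 to 33 nt, the length of piRNAs, or from sequences shared with another hairpin gene. With the same background limited to sequences of 20 to 24 nt inside a single hairpin gene, a choice made after seeing the data, 199 hairpin genes were tested, their median ratio was 0.987, and 15.1% were called higher in KO. On that scale the 6 members together had a ratio of 1.34 (1.253 to 1.43), and 8 hairpins, or 4.02%, had a larger one, of which 2 were the members Mir291a and Mir295. Mir291a had the largest ratio of all 458 genes tested over all lengths.

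**Figure D2:**
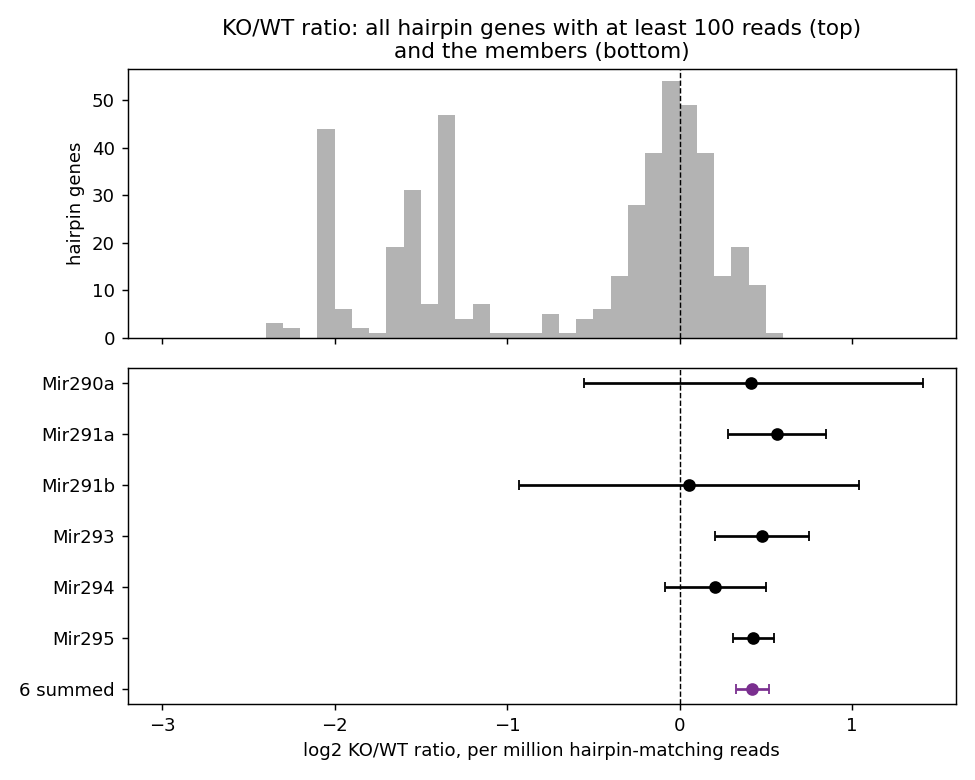
Top, number of hairpin genes by log2 KO/WT ratio, for the 458 genes with at least 100 reads. Bottom, ratio of each member and of the 6 summed, with 95% Clopper-Pearson intervals; the dashed line marks equal levels. The summed members lie at a ratio of 1.34, near the right edge of the distribution, whose left-hand peaks hold the 183 genes with a ratio under 1/1.5.

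The miRNAs of other cells were examined by lists. The gonadal support miRNAs Mir202 and Mir140 had a summed ratio of 1.06 (1.03 to 1.10), and endothelial Mir126a 1.003 (0.979 to 1.03). The 6 mesenchymal hairpins had 1.02 (1.013 to 1.027) with each read counted once. Of these, Mir143 and Mir145a were called lower, and Mir199a-1 and Mir199a-2, which share all 61998 WT reads of the former, were called higher. The blood cell miRNAs Mir451a, Mir144, Mir142 and Mir223 were lower in KO. Their summed level was 757 RPM in WT and 615 in KO, a ratio of 0.812 (0.759 to 0.869). Of these 4, 3 were called lower, against 51.1% of the 458 hairpin genes. That share includes hairpin genes that drew most of their reads from piRNA-length or shared sequences. Among the 199 hairpin genes limited to 20 to 24 nt and a single gene, the median ratio was 0.987. The share called lower was not taken among these 199. The spermatogonial miRNAs Mir21a, Mir146, Mir221 and Mir222 had 0.964 (0.925 to 1.004), and none of the 4 had an unadjusted p under 0.05. Reads of 24 to 33 nt outside hairpins had a ratio of 0.638. The part of these differences in the ratio of the 6 members was not tested.

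The other hairpins of the cluster and miRNAs with a related seed were followed too. Mir292, which lies between Mir291a and Mir291b, had a ratio of 1.11 (0.965 to 1.27; exact, adjusted p = 0.203). Mir290b and Mir292b, annotated on the opposite strand, had 0 reads in either library, which allows up to 1.19 RPM in WT and 1.17 in KO. The miR-302 family, the other pluripotency family with the AAGUGC core, had at most 2 reads per hairpin and library (Mir302a, Mir302b, Mir302c and Mir302d). Of the miR-17 family, whose 5p strands carry the core 1 base further in, Mir17 was higher in KO at 1.15 (1.03 to 1.29; exact, adjusted p = 0.0272) and Mir93 at 1.08 (1.015 to 1.14; exact, adjusted p = 0.0252). Mir20a had a ratio of 0.993 and Mir106b of 1.005, and Mir20b and Mir106a were under 100 reads. Thus 2 of the 4 seed relatives tested were called higher and 0 lower, against 8.73% and 51.1% of the 458 hairpin genes. Among the 199 hairpin genes limited to 20 to 24 nt and a single gene, 15.1% were called higher, and the share called lower was not taken. The 10 relatives together had a ratio of 1.07 (1.02 to 1.12).

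The 5 other hairpins whose ratio was nearest to that of the summed members, by the absolute difference of log2 ratios over the 2 libraries, were Mir467d, Mir130b, Mir878, Mir667 and Mir199a-1, with ratios between 1.32 and 1.36. Their level ranged widely, from 45 WT reads for Mir667 to 61998 for Mir199a-1, which shares its reads with Mir199a-2.

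The arms were used very differently by hairpins of the same precursor. Mir295 and Mir294 gave almost only 3p reads. Mir290a gave almost only 5p reads, Mir291a mainly 5p reads, and Mir291b and Mir293 used both arms. The minor arm exceeded 20% of reads, over both libraries, in 3 of the 6 hairpins, against 20.7% of the 458 hairpin genes. That share was not taken without the genes of mostly piRNA-length or shared sequences.

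For Mir295, the 3p strand made up 1033 of 1045 reads in WT, a share of 98.9% (95% Wilson interval 98.0 to 99.3), and 1425 of 1428 in KO, or 99.8% (99.4 to 99.9). For Mir294 the 3p share was 93.4% (88.8 to 96.2) in WT and 97.2% (94.0 to 98.7) in KO. In both hairpins the abundant strand is the one with the AAGUGCU seed. Mir293 gave 95 5p and 99 3p reads in WT, a 3p share of 51.0% (44.0 to 58.0), and 108 and 166 in KO, or 60.6% (54.7 to 66.2). Mir291b gave 12 and 7 reads in WT and 10 of each arm in KO.

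Among the 6 members Mir291a gave the most 5p reads, while Mir292, not a member, gave 294 in WT and 297 in KO. It gave 125 5p and 48 3p reads in WT, a 3p share of 27.7% (21.6 to 34.8), and 216 and 44 in KO, or 16.9% (12.9 to 21.95). Its 5p strand rose 1.70-fold in KO (1.36 to 2.14; exact binomial test, adjusted p = 3.79e-06 over 542 arms), while its 3p strand, with 92 reads in all, had a ratio of 0.903 (0.586 to 1.39). For Mir293 the 3p strand was the one called, with a ratio of 1.65 (1.28 to 2.14; exact, adjusted p = 0.000133) for the 3p and 1.12 (0.842 to 1.49; exact, adjusted p = 0.529) for the 5p strand. miR-295-3p rose 1.36-fold (1.253 to 1.47; exact, adjusted p = 1.28e-13), and miR-294-3p had a ratio of 1.20 (0.974 to 1.48; exact, adjusted p = 0.128). So 3 of the 5 member arms with at least 100 reads were called higher in KO, against 7.93% of the 542 arms. These include arms of hairpin genes that drew most of their reads from piRNA-length or shared sequences. The share was not taken without them.

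The change of arm use itself was tested with Fisher's exact test for each hairpin. The unadjusted p was 0.00829 for Mir291a, 0.0468 for Mir293, 0.0909 for Mir294 and 0.00355 for Mir295. After adjustment over the 458 hairpin genes none of the members passed (Fisher's exact test, adjusted p = 0.253 for Mir291a, 0.498 for Mir293 and 0.159 for Mir295), and 1.09% of all hairpin genes did. The 3p share was lower in KO for Mir291a and higher in KO for Mir293, Mir294 and Mir295, and that of the 6 summed was 83.3% (81.4 to 85.04) in WT and 83.5% (81.9 to 85.03) in KO.

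**Figure D3:**
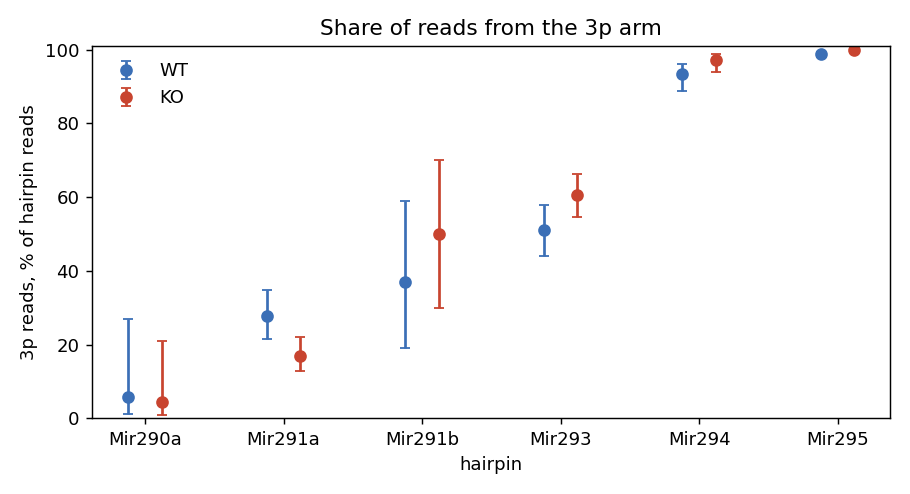
Share of each hairpin's reads that came from the 3p arm in the WT (blue) and KO (red) library, in percent with 95% Wilson intervals. The shares run from 5.88% in WT for Mir290a to 99.8% in KO for Mir295, and the WT and KO intervals overlap for all hairpins but Mir295, whose shares of 98.9% and 99.8% lie too close to the top of the axis for their bars to show.

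The hairpins were folded to see whether the most abundant 5p and 3p sequence of each form a Dicer-like duplex. In the predicted structures 12 to 14 bases lay between the strands. At the base of the stem the 3p strand overhung the 5p strand by 2 nt in Mir291b, Mir293, Mir294 and Mir295 and by 3 nt in Mir291a, and could not be measured in Mir290a. At the loop side the 5p strand overhung by 2 nt in Mir291a, Mir293, Mir294 and Mir295 and by 1 nt in Mir290a, and could not be measured in Mir291b. Of the first 4 bases of each strand, 2 formed G-C pairs at the 5p end and 1 at the 3p end in Mir291a, Mir293, Mir294 and Mir295. Of the same 4 bases, 3 or 4 were paired at either end in these hairpins. Their 3p shares over both libraries ranged from 21.2% to 99.4%. In Mir290a 2 of the 4 bases were paired at the 5p end and 4 at the 3p end, and in Mir291b 3 and 2. Each of these ends held 1 G-C pair, and the 3p shares over both libraries were 5% and 43.6%. The part of end pairing in the 3p shares was not tested.

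**Figure D4:**
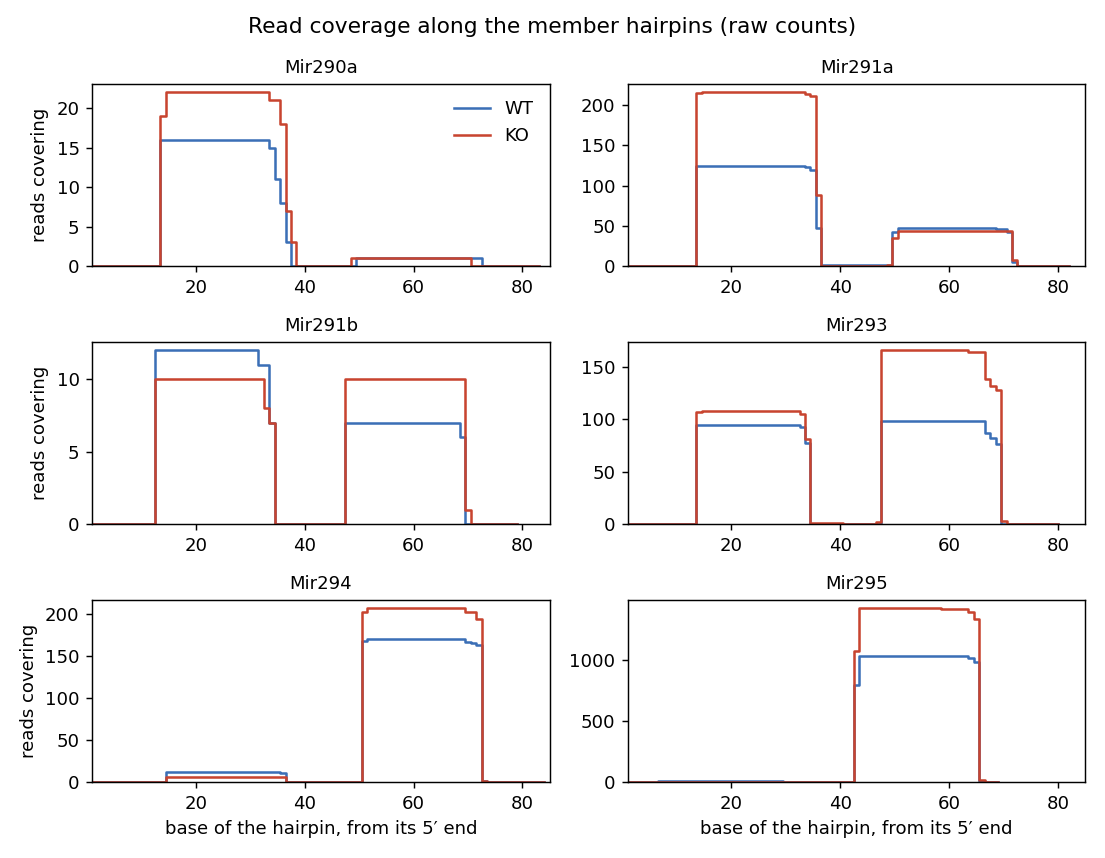
Reads covering each base of the 6 member hairpins, counted from the 5′ end of the hairpin, in the WT (blue) and KO (red) library (raw counts, a separate scale for each panel). The left block of each panel is the 5p and the right block the 3p strand. Most blocks start sharply at their 5′ end and taper at their 3′ end. The 3p block of Mir295 starts in 2 steps, and smaller steps open the 3p block of Mir291a and, in KO, the 5p block of Mir290a.

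The annotated 5′ end was the most frequent one in every arm but miR-290a-3p, where 1 KO read began at it and 1 WT read began 1 base later. Over both libraries the share of reads that began elsewhere was 0.587% for miR-291a-5p, 0.493% for miR-293-5p, 0.755% for miR-293-3p and 1.59% for miR-294-3p. miR-295-3p had more shifted reads than these 4 arms. Its reads with a shifted 5′ end numbered 238 in WT, a share of 23.04% (20.6 to 25.7), and 346 in KO, a share of 24.3% (22.1 to 26.6). The libraries were not distinguished in this share (Fisher's exact test, p = 0.502, adjusted p = 0.989 over 542 arms, of which 1.29% passed). The median share over these arms was 17.4% (quartiles 1.08% and 46.6%), and 46.5% of the arms had a larger share than miR-295-3p. Among them was the 3p arm of Mir292, with 44.3%. The 542 arms include arms of hairpin genes that drew most of their reads from piRNA-length or shared sequences. The median was not taken without those arms, so that it may not hold for miRNA arms alone. Over the 6 hairpins the share was 16.01%, and without Mir295 it was 2.25%. miR-291a-3p had 16 shifted reads among 92, of which 1 came from the loop.

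The shifted form of miR-295-3p is shown beside the main form because it moves the seed by 1 base (reads as deposited, with T for U; capitals mark bases 2 to 8).
main form: aAAGTGCTactacttttgagtct
shifted form: aAGTGCTActacttttgagtct
main form, 1 nt shorter at the 3′ end: aAAGTGCTactacttttgagtc
The main form had 752 WT and 991 KO reads, a KO/WT ratio of 1.30 (1.18 to 1.43). The shifted form had 220 and 327 reads and a ratio of 1.46 (1.23 to 1.74), and the shorter form 29 and 52 reads and a ratio of 1.77 (1.10 to 2.89). The 3 intervals overlap one another. The shifted form of miR-295-3p alone was read more often than miR-294-3p, Mir293 or Mir291a in either library.

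The seeds present in the testis followed from arm use and 5′ ends together. Reads with the core AAGUGC at bases 2 to 7 made up 62.1% (59.7 to 64.4) of the members' reads in WT and 59.8% (57.8 to 61.9) in KO. Those with the core 1 base nearer to the 5′ end, nearly all from miR-295-3p, made up 15.1% (13.4 to 16.9) and 16.3% (14.8 to 17.9), and those with AGUGC at the first bases, all from miR-293-3p, 6.07% (5.01 to 7.34) and 7.39% (6.38 to 8.56). The AUCAAA seed of miR-291a-5p and miR-291b-5p was found in 8.34% (7.10 to 9.79) and 10.1% (8.96 to 11.5), and the CUCAAA seed of the other 5p strands in 8.28% (7.04 to 9.72) and 6.04% (5.12 to 7.11). The AUCAAA class had a KO/WT ratio of 1.63 (1.31 to 2.03) and the CUCAAA class 0.978 (0.764 to 1.251), and their intervals did not overlap. The former consists mainly of miR-291a-5p and the latter mainly of miR-293-5p.

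**Figure D5:**
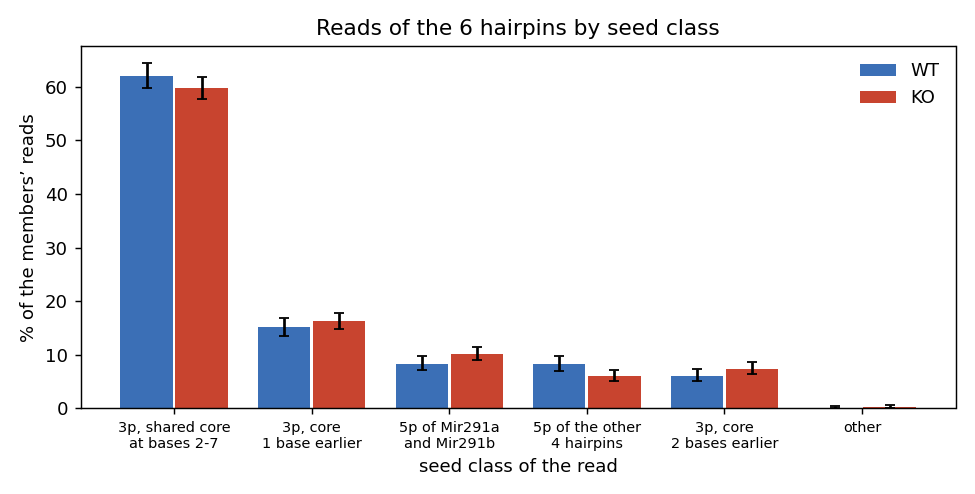
Share of the members' reads in each seed class in the WT (blue) and KO (red) library, in percent with 95% Wilson intervals. The shared core of the 3p strands at bases 2 to 7 takes 62.1% of WT and 59.8% of KO reads. The 3p strands with all or part of the core nearer to the 5′ end and both 5p groups divide most of the rest.

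Reads of 23 nt made up 50.4% of the members' reads in WT and 50.0% in KO, and reads of 22 nt 38.2% and 39.5%. Reads of 24 nt or more, the length of piRNAs, were 0.736% and 0.902%. The annotated mature sequences accounted for 68.8% of WT and 66.7% of KO reads of the members and were the most abundant form of 8 of the 12 arms.

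miR-293-5p and miR-291a-5p are shown because their main 3′ ends differ from, or add to, the annotated ones.
miR-293-5p, main form: aCTCAAACtgtgtgacatttt
miR-293-5p, 1 nt shorter: aCTCAAACtgtgtgacattt
miR-291a-5p, main form: cATCAAAGtggaggccctctct
miR-291a-5p, 1 nt longer: cATCAAAGtggaggccctctctt
The annotated miR-293-5p of 22 nt had 0 reads in both libraries. Its form of 21 nt had 78 WT and 80 KO reads and that of 20 nt 15 and 23. For miR-291a-5p the annotated form had 71 and 122 reads and the longer one 46 and 88, with ratios of 1.69 (1.253 to 2.30) and 1.88 (1.30 to 2.75). The added base is also the next base of the hairpin, so that it cannot be told apart from a uridine added after cutting. Of miR-293-3p, 77 WT and 123 KO reads were the annotated form, and 12 and 25 ended 3 nt earlier. miR-294-3p was almost uniform, with 160 and 188 reads of the annotated form, 94.1% of its WT reads.

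The minor strands of Mir294 and Mir295 had fewer reads in KO than in WT. miR-294-5p had 12 WT and 6 KO reads, a ratio of 0.493 (0.152 to 1.42). miR-295-5p had 12 and 3 reads, a ratio of 0.246 (0.0446 to 0.912; exact binomial test, unadjusted p = 0.0204). With all reads as the normalizing total its ratio was 0.287 (0.0519 to 1.06), an interval that includes 1. Both strands lie under the minimum of 100 reads and rest on few reads, and miR-290a-3p had 1 read in each library.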

How the data were processed

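Small RNA was extracted from pooled E16.5 testes, 1 WT and 1 KO library was made with the TruSeq Small RNA kit, and 50-base single-end reads were taken on MiSeq. The authors clipped the adaptor, and the deposited values give for each distinct sequence (11 to 48 nt) its raw read count, neither mapped nor normalized.

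Those 16 nt or longer were looked up without mismatch in the sense strand of the 2202 miRNA transcripts of GENCODE M21 (GRCm38). A sequence inside several hairpin genes counted for each. A read belonged to the 5p arm if its midpoint lay before that of the hairpin. KO/WT counts were scaled to hairpin-matching reads and tested with exact conditional binomial tests, arm and 5′-end shares with Fisher's exact test, adjusted by Benjamini-Hochberg over all hairpin genes or arms with at least 100 reads. No replicate model could be fitted. The totals of 6409305 and 5589326 reads set the precision, given as 95% intervals.

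Named were all members and their arms, abundant sequences from the 3 most frequent per arm, the other hairpins of the cluster, seed relatives, cell type lists and the 5 hairpins nearest in ratio. The members and lists were chosen with earlier results of these data known. The statistics were checked on simulated data. The simulated counts were independent Poisson draws, the model that the tests assume. They held no PCR copies and no variation between libraries, so the check cannot speak to those limits. Alternatives covered the normalizing total, lengths, minimum reads, distinct sequences, shared sequences, mismatches, 3′ tails and the reference for arms and 5′ ends. Python 3.11.15, numpy 2.4.6, scipy 1.17.1, matplotlib 3.10.9 and RNAfold 2.7.2 were used.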

Additional observations from a re-analysis of the deposited data

Results flagged for a closer look

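Reads outside the exact matches were found on the member hairpins. An exact match of at least 16 nt followed by 1 to 3 nt not in the hairpin was carried by 96 WT and 110 KO reads, above the 3 reads that a count of 0 allows. They made up 5.56% (4.58 to 6.75) of the exact and tailed reads of the members in WT and 4.73% (3.94 to 5.66) in KO, against 12.02% and 11.9% over all hairpins. Tails of 1 nt were 71 of the WT and 70 of the KO reads. Tails of A only numbered 21 and 29 reads and tails of T only 24 and 25. miR-291a-5p carried the most tailed reads, 27 and 36, or 17.8% (12.5 to 24.6) and 14.3% (10.5 to 19.1) of its reads, and miR-295-3p 21 and 28, or 1.99% (1.31 to 3.03) and 1.93% (1.34 to 2.77). By share, miR-291b-5p was higher, at 40% (8 reads) in WT and 41.2% (7 reads) in KO, as were miR-290a-5p at 23.8% and 29.0% and miR-291a-3p at 22.6% and 20%. Whether these bases were added, or arose by sequencing error, was not tested.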

How the results depend on the processing

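The KO/WT ratio of the summed members stayed above 1 under every alternative run, between 1.248 and 1.56. It was 1.56 when normalized to all reads, a choice that raises every log2 ratio by 0.219 and moves the median over hairpin genes from -0.21 to 0.00459. It was 1.248 (0.842 to 1.85) with each distinct sequence counted once, where the interval includes 1. There the members had 53 sequences in WT and 56 in KO. The normalizing total was also counted in distinct sequences, 7551 in WT and 6394 in KO, so that this ratio rests largely on the lower KO total. Counting distinct sequences also turned the ratio of Mir291a to 0.984, left 0 hairpins and 0 arms with an interval above 1, against 3 and 3, and raised the shifted 5′ end share from 16.01% to 26.6%. With only 70 sequences in all these counts hold little precision. The shifted share was 2.25% without Mir295, which was left out after seeing the data. Hairpin genes past 1.5-fold numbered 183, against 274 of 669 with at least 10 reads, of which 33 were higher in KO, 55 of 178 with at least 1000 reads and 5 with sequences of 20 to 24 nt inside 1 hairpin gene only, likewise added later. With all reads as the total, 15 genes were higher and 176 lower. The number of members whose arm use passed the adjusted Fisher's exact test was 0 under each alternative run. At an unadjusted p under 0.05 it was 3, 2 or 3 under the alternatives that count reads, and 0 with distinct sequences. No paired analysis was possible because each genotype has 1 library. Depth limits Mir290a, Mir291b and the minor arms most.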
